A study of Mus musculus with 12 samples.

Results

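The distal intergenic peaks of a Mirlet7d ChIRP-seq experiment are the peaks that lie between genes, carry no repeat name in the deposited annotation and are over 50 kb from the nearest transcription start site (TSS). They number 349 of 4286 peaks, or 8.14%. They were chosen by 3 entries of the authors' annotation, namely the class Intergenic, a detailed annotation that names no repeat element, and an absolute distance to the TSS of over 50000 bases. The detailed entry read Intergenic for 347 of them and CpG for the other 2. The series compared 12 libraries of MLE-12 cells, each the single library of its group. The ChIRP library was made with 150 pmol of biotinylated probes against mature Mirlet7d, hybridised to MLE-12 chromatin for 4 h at 37 °C and captured on beads for 30 min, per the labels' protocols. A ChIRP input library accompanies it, and whether the peaks were called against that input is not given in the sources used here. In the pull-down, MLE-12 cells received 25 nM of biotinylated Mirlet7d for 48 h, and the RNA captured with it was sequenced beside an input RNA library. MLE-12 is an established line of mouse lung epithelium immortalised with a viral large T antigen, so these data describe 1 line, and neither assay has a replicate. A label of the ChIRP sample also lists Mirlet7d under gain of function, whereas its protocol describes no transfection.

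Mirlet7d belongs to the let-7 family of microRNAs, which are best known for pairing through a short seed near the 5′ end with messenger RNAs in the cytoplasm and which also occur in nuclei. ChIRP captures chromatin through probes that hybridise to an RNA, so a peak marks DNA recovered with the probes, by way of the RNA or by direct pairing of probe and DNA. Intergenic DNA far from genes holds enhancers, insulators, unannotated transcripts and large stretches of closed chromatin, and the nearest gene of such a site need not be the one it acts on. The probes follow the mature sequence of Mirlet7d, shown here in RefSeq's version (GRCm38.p6) with the seed, bases 2 to 8, in capitals. Below it stand the mature microRNAs whose genes were nearest to the highest-scoring or most numerous distal peaks among microRNA genes.
let-7d-5p: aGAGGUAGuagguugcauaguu
miR-148a-3p: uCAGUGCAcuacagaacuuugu
miR-129-5p: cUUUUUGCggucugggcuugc
miR-21c: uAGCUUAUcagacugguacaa

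MicroRNA genes were nearest to 15 of the 349 distal peaks, or 4.30% (95% interval 2.43 to 6.99, exact binomial), and numbered 12. The background over all 4286 peaks was 3.13%, from 134 peaks of 98 genes, and lies within that interval. For 10 of the 12 a mature sequence was at hand, giving 15 mature sequences with 15 distinct seeds, and 0 of them carried the let-7d-5p seed. A list of let-7 family genes had 0 nearest to a distal peak and 1 nearest to any peak, so the absence of that seed is no separate result. Mir148a, on chromosome 6, had a peak of score 58.55 at 161468 bases and a peak of score 36.58 at 206853 bases downstream of its TSS. Mir129-1, also on chromosome 6, had a single distal peak of score 53.35 at -73576 bases, where a negative distance is upstream of the TSS. It was nearest to 2 peaks in all. Mir21c, on chromosome 8, had 3 peaks, with scores of 39.51, 34.45 and 33.01. Mir205, an epithelial microRNA, and Mir29b-1, of a family known for targeting collagen messages, had a distal peak each, with scores of 30.33 and 30.66. Counting every class, Mir205 was nearest to 1 peak and Mir29b-1 to 8. Scores are those of the peak caller MACS as the authors deposited them, without a stated unit, and serve only to rank peaks within this list. The deposited name of the MACS run appears to hold a p-value cutoff, but how the scores relate to it was not tested. Most distal peaks scored under 40, near the lowest score of the list, and those near Mir205 and Mir29b-1 are among them.

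The distal peaks were of ordinary score and width apart from 7 that stood far above the rest. Their scores had a lower quartile of 31.55, a median of 34.33 and an upper quartile of 39.57, and the median of all peaks was 34.3. A score of at least 40 was reached by 85 of the 349, or 24.4% (95% interval 19.9 to 29.2), against a background of 24.8% over all 4286 peaks. Intervals of shares are exact Clopper-Pearson intervals, those of medians come from ranks, and both cover counting error only, since the peaks come from 1 library. Median width was 633 bases (95% interval 610 to 649) in the distal peaks and 648 bases in the 759 repeat-free intergenic peaks within 50 kb of a TSS. It was 597.5 bases in the 212 intergenic peaks beyond 50 kb whose annotation names a repeat. Score and distance showed next to no rank relation among the distal peaks (Spearman's rho of -0.02 over 349 peaks of 1 library), and score and width a moderate one (rho of 0.32).

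The highest score, 3100, belonged to a peak at chr17:39979426-39985980 (mm9), which was also the widest at 6555 bases and was 1 of the 2 annotated as CpG. Its nearest gene by the deposited annotation was Esp38, which codes for a secreted exocrine gland peptide, at -104762 bases. In the RefSeq gene order the neighbours of Esp38 on that side are the long noncoding RNA AY036118 and Rn18s-rs5, a pseudogene related to 18S ribosomal RNA, and neither was the nearest gene named for the peak. In the whole list 2 peaks shared this exact score, and whether 3100 is a ceiling of the caller is not given in the sources used here. The next widest distal peaks were 2829 bases near Gm8579 on chromosome 6 (score 39.78) and 1574 bases near Irf2bp2. The other distal peaks of score 100 or more were nearest to 1700019M22Rik (469.05), Nxph1 (260.09), Ccnh (236.23), Cr2 (235.77), Eea1 (212.26) and Tyrp1 (167.71). Nxph1 codes for a secreted ligand of neurexins, Ccnh for the cyclin of the CDK-activating kinase and Cr2 for a complement receptor. Eea1 codes for an early endosome tether and Tyrp1 for an enzyme of melanin synthesis. The peak near Cr2 was the other one annotated as CpG. Below these 7 the scores dropped to 92.01 at Gm5458, 71.93 at Col4a1, which codes for a basement membrane collagen, and 71.13 at Irf2bp2, a transcriptional corepressor.

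Among the distal peaks 7 of 349 (2.01%) had a score of at least 100 and 6 (1.72%) of at least 200, against 45 (1.05%) and 18 (0.42%) of all peaks. The 7 lay on 7 different chromosomes. Of these 7, 1 was on the 5 chromosomes that carry most peaks of the library (6, 8, 11, 16 and 19), a share of 14.3% (95% interval 0.361 to 57.9). The share was 76.9% (60 of 78, 66.0 to 85.7) for distal peaks with a score of at least 40 and under 100, and 55.3% (146 of 264, 49.1 to 61.4) for those under 40. The intervals of the last 2 shares did not overlap. Over all peaks the same shares were 51.1%, 73.0% and 58.9%. Median width was 955 bases in the 7, beside 803 and 601 bases in the 2 lower score classes.

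**Figure D1:**
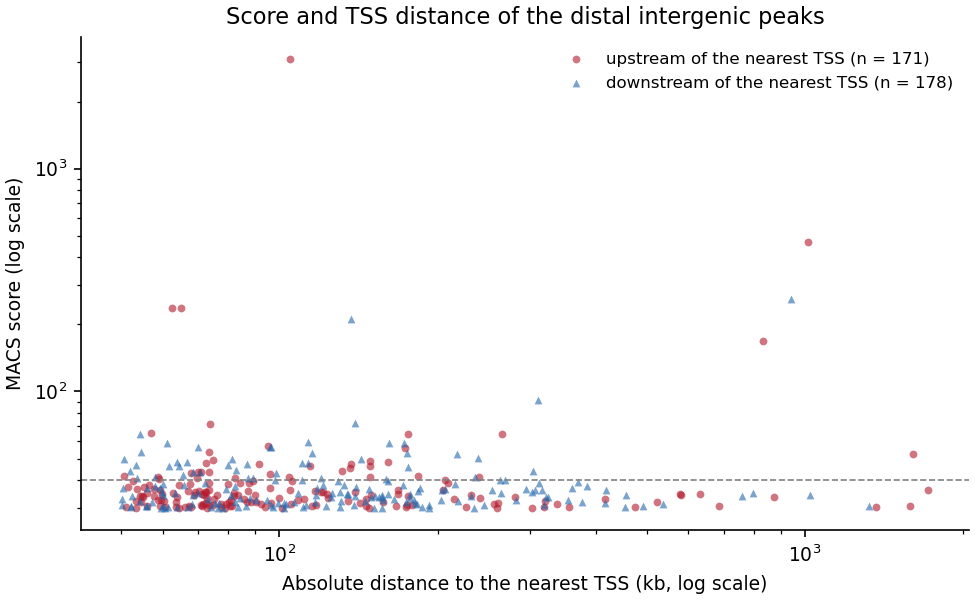
MACS score of each distal intergenic peak (log axis) against its absolute distance to the nearest TSS in kb (log axis), with circles for the 171 peaks upstream of that TSS and triangles for the 178 downstream. The dashed line is a score of 40, most peaks lie between 30 and 70 at every distance, and 7 peaks lie above 100.

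The distances of these peaks ran to 1716375 bases. Their lower quartile was 70213, their median 102804 (95% interval 91507 to 116933) and their upper quartile 175470 bases. In the repeat-bearing intergenic peaks beyond 50 kb the median was longer, at 146935.5 bases. The farthest peak lay upstream of 1700065L07Rik on chromosome 6, with a score of 36.25. Next came 2 peaks near Lphn3, which codes for latrophilin 3, an adhesion receptor of synapses, at -1604802 and -1583814 bases with scores of 52.43 and 30.51. Lrrtm1, a synaptic leucine-rich repeat protein, followed with a peak at -1363293 bases (score 30.31), and Cdh8, a cadherin, with one at 1324889 bases (score 30.69). At the edge of the rule, peaks just inside were at 50184 bases from Scaf11 (score 33.08) and 50494 from Arl4c (36.89). Peaks just outside were at -49797 bases from Tob1 (37.49), 49686 from Tmem174 (34.89) and -49498 from Runx1 (35.35).

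The distal peaks fell about evenly on either side of the nearest TSS. Upstream lay 171 of 349, or 49.0% (95% interval 43.6 to 54.4). Upstream shares were higher in the repeat-bearing peaks beyond 50 kb, at 62.3% (55.4 to 68.8), and in the repeat-free peaks within 50 kb, at 73.4% (70.1 to 76.5). An intergenic peak can lie downstream of a TSS only past the end of that gene, so this share is not free of the rule. Among the distal peaks the upstream share was 58.9% (49.2 to 68.1) at 50 to 75 kb and 54.2% at 75 to 100 kb. It was 39.4% (30.0 to 49.5) at 100 to 200 kb and 35.7% (23.4 to 49.6) at 200 to 500 kb. Beyond 500 kb, 12 of 18 peaks lay upstream (66.7%, 41.0 to 86.7), so the shares followed no single direction with distance. The nearest gene was a protein-coding one for 283 peaks (81.1%) and a noncoding RNA gene for 62 (17.8%, 13.9 to 22.2), against 11.5% (9.28 to 13.9) noncoding in the repeat-free peaks within 50 kb, whose interval touches the first. The noncoding share was 19.8% (14.7 to 25.8) in the repeat-bearing peaks beyond 50 kb and 10.5% over all peaks, and the intervals of both classes beyond 50 kb overlap. Noncoding genes were nearest to 11.7% of the distal peaks upstream of a TSS and to 23.6% of those downstream.

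**Figure D2:**
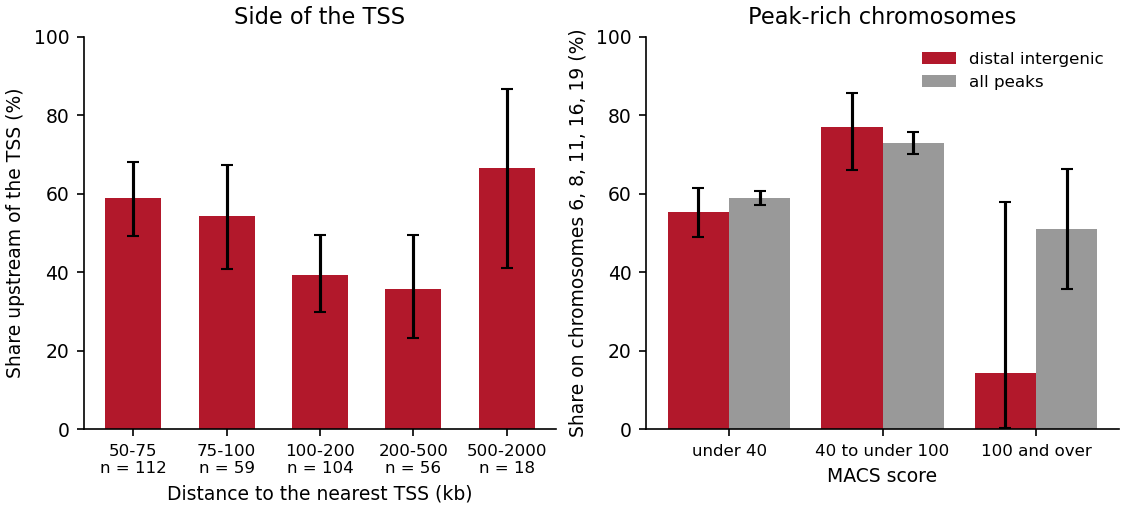
Left, share of distal intergenic peaks upstream of the nearest TSS (%) by distance to it (kb). Right, share of peaks on chromosomes 6, 8, 11, 16 and 19 (%) by MACS score, for distal intergenic peaks (red, 264, 78 and 7 from low to high score) and for all peaks (grey, 3221, 1020 and 45). Error bars are 95% exact binomial intervals, and the right panel is highest in the middle score class in both sets.

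The 5 peak-rich chromosomes held 207 distal peaks, or 59.3% (95% interval 54.0 to 64.5), against 62.2% of all peaks, so distal peaks followed the uneven spread of the whole list. These chromosomes were singled out from all peaks of this library, so their share is a description. Lengths were counted up to the last peak or pull-down candidate of each chromosome. By that count the 5 make up 21.3% of the length. They had 0.107 to 0.625 distal peaks per Mb, against 0.0300 to 0.115 on the 15 others. Within the 5 the distal share was unequal. Of the peaks on chromosome 8, 82 of 676 (12.1%) were distal, and on chromosome 6, 59 of 638 (9.25%). Chromosome 16 had 37 of 387 (9.56%). On chromosome 11 only 13 of 625 were distal (2.08%, 1.11 to 3.53), and on chromosome 19 16 of 340 (4.71%, 2.71 to 7.53). Chromosome 8 thus carried 23.5% of the distal peaks and chromosome 11 3.72%, from similar numbers of peaks in all. The rule asks for over 50 kb to a TSS, so the distal share of a chromosome is not free of how its genes are spaced. That spacing was not measured here. Of the repeat-bearing peaks beyond 50 kb 45.8% (38.9 to 52.7) lay on the 5 chromosomes, an interval below that of the distal peaks.

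**Figure D3:**
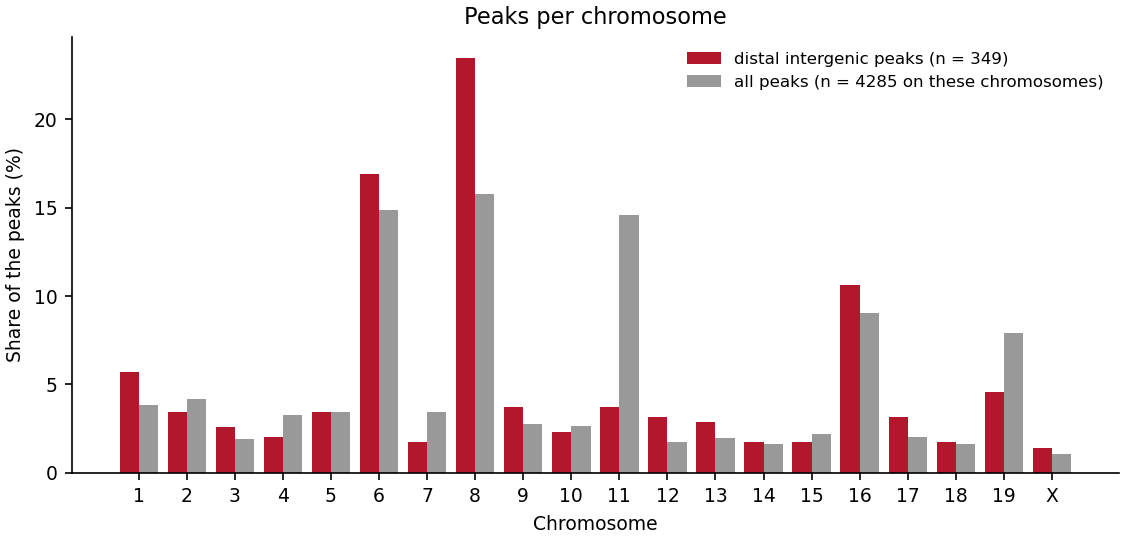
Share of the 349 distal intergenic peaks (red) and of all peaks (grey) on each chromosome, in % of each set. Chromosomes 8, 6 and 16 hold the tallest red bars, and on chromosomes 11 and 19 the red bar is below the grey one.

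On chromosome 8 the distal peaks were unevenly spread. The window from 120 to 130 Mb held 23 of them among 116 peaks, and that from 30 to 40 Mb 13 among 40. The window from 70 to 80 Mb held 1 among 95. Over the genome, 91 distal peaks (26.1%, 21.5 to 31.0) had another distal peak within 100 kb. A neighbouring peak of any class within 100 kb was found for 152 (43.6%, 38.3 to 48.9), against 22.6% (17.2 to 28.9) of the repeat-bearing peaks beyond 50 kb and 71.0% (67.6 to 74.2) of the repeat-free peaks within 50 kb. Over all peaks the share was 63.8% (62.3 to 65.2), an interval above that of the distal peaks. The median distance to a TSS was 14234.5 bases over all peaks, and the rule sets distal peaks apart from such places. The difference from all peaks is thus not free of the rule. Joined wherever less than 100 kb apart, the 349 formed 297 stretches, of which 258 held a single peak, 34 held 2, 3 held 3 and 2 held 7. Of the 91 peaks that shared a stretch, 73 lay on the 5 peak-rich chromosomes. These held 59.3% of all distal peaks on 21.3% of the length, so the count is not free of their density.

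Both stretches of 7 lay on chromosome 8. The first, chr8:129190342-129374457, spanned 184.1 kb between Irf2bp2 and Tomm20, which codes for the import receptor of the mitochondrial outer membrane. Its peaks from low to high coordinate had scores of 71.13 and 48.04, assigned to Irf2bp2, and of 35.17, 36.83, 30.82, 42.91 and 56.06, assigned to Tomm20. The tallest peaks thus stood at its ends, and an eighth peak inside it, of score 45.6, carried the repeat name MIRc. The second, chr8:122797235-122942312, spanned 145.1 kb upstream of Gse1, which codes for a protein of histone deacetylase corepressor complexes, and of Fam92b. Its scores were 36.7 and 33.36 for the peaks assigned to Fam92b, and 35.48, 35.59, 30.54, 47.96 and 43.58 for those assigned to Gse1. The 2 highest of them were the 2 nearest to Gse1, at -72495 and -70806 bases. A tight group of 3 lay on chromosome 16 within 5.18 kb, at 65781 to 70000 bases downstream of Setd4, a SET-domain methyltransferase gene, with scores of 56.41, 43.68 and 38.04.

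The 349 peaks had 289 distinct nearest genes, 9.05% of the 3192 genes nearest to any peak. A single distal peak was assigned to 243 of them, 2 or more to 46 and 3 or more to 9. Tomm20 and Gse1 had 5 each. B930025P03Rik had 4, at 59644, 87987, 217493 and 234232 bases with scores of 30.14, 33.28, 52.68 and 30.07. Irf2bp2 had 3, the third at 55910 bases with a score of 30.49. Tle4, a Groucho-type corepressor, had 3 on both sides, at -264968, 172746 and 254152 bases with scores of 64.42, 58.72 and 36.0, and no peak of another class. The others with 3 were Setd4, Mir21c, Efnb2, which codes for an ephrin ligand, and the olfactory receptor gene Olfr1505. Of the 289 genes, 109 (37.7%) also had a peak of another class, and 7 (2.42%) had a promoter peak, against 402 (12.6%) of all 3192. A promoter peak by itself puts its gene among the 3192, so the second share holds genes that entered in that way. The 7 were Setd4 (51.47), Desi2 (44.41), Runx1 (40.6), Ddx18 (36.96), Mpdz (34.53), Klf9 (32.17) and Fbxo8 (31.51), with the score of the promoter peak in brackets.

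**Figure D4:**
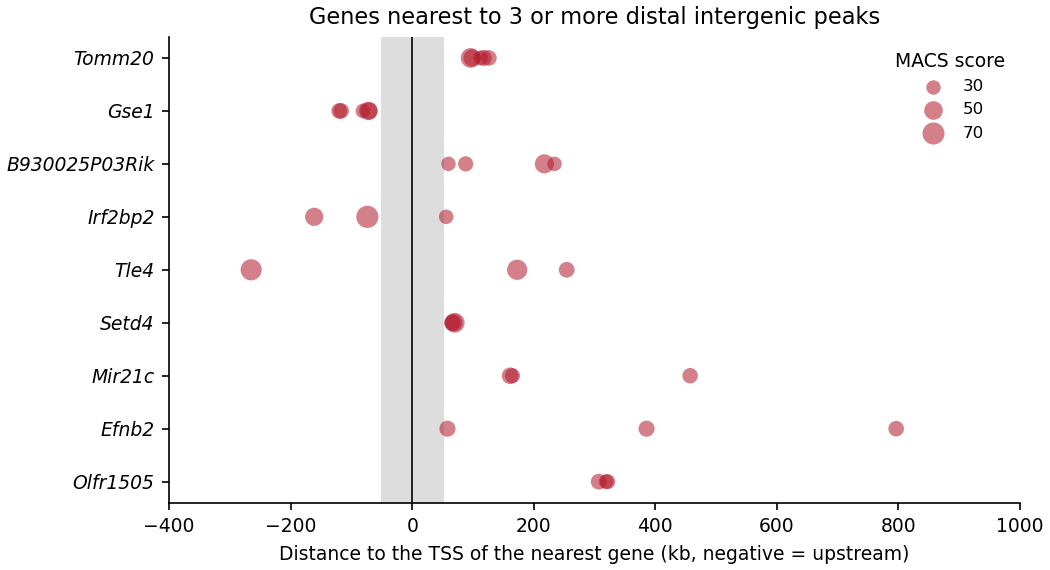
Distance in kb from the TSS of the nearest gene for each distal intergenic peak of the 9 genes with 3 or more, negative upstream, with point area in proportion to the MACS score. The grey band is the excluded range of 50 kb on either side, and the points of Tomm20, Gse1, Setd4 and Olfr1505 bunch while those of Tle4 and Efnb2 spread.

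Gene lists by role were read against the same background of 9.05%. Of 135 developmental transcription factors, 27 were nearest to some peak and 7 of these to a distal one, with a median score of 32.04 over 8 peaks. They were Irx3 (40.78 at 89229 bases) and Irx5 (32.13 at 145827), homeobox genes of 1 cluster, Klf4 (34.8 at -578415), Runx1 (32.87 at -85632), Nr2f1, Eya1 and Foxp1. Of 123 adhesion and synapse genes, 35 were nearest to some peak and 6 to a distal one, namely Nxph1, Lphn3, Cdh8, Ncam1, Lrrtm1 and Epha3. Their 8 peaks had a median score of 30.86, with only Nxph1 and Lphn3 above 40. Of 32 lung epithelial genes 10 were nearest to some peak and 2 to a distal one. Foxa2, a forkhead factor of lung and liver endoderm, had a peak of 35.32 at -139414 bases, and Foxp1, a forkhead repressor of airway development, had peaks of 30.69 at -80715 and 30.14 at 151195 bases. Inhbb (49.6 and 32.65), an activin subunit, and the inhibitory Smad6 (33.6) were the 2 of 10 in the TGF-β and BMP list. Fgf20 (40.49 and 35.09) and Nrg1 (30.14) were the 2 of 10 in the growth factor and receptor list. Bach1 (32.74) and Ccnd1 (31.26) were the 2 of 10 in a list of let-7 targets, and Sfrp1 (36.67), a secreted Wnt inhibitor, the 1 of 19 in the Wnt list. No distal peak was assigned to the mesenchymal (0 of 10), endothelial (0 of 4), immune (0 of 1), let-7 family (0 of 1) or nuclear complex list (0 of 5). With so few genes per list none is called particular to the distal peaks.

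The pull-down lists hold 6208 noncoding RNA (ncRNA) candidates, and in the authors' deposited table their lowest ratio of pull-down to input was 2.5. Within 10 kb of a candidate lay 12 of the 349 distal peaks, or 3.44% (95% interval 1.79 to 5.93), against a background of 12.4% over all peaks. The share was 0.472% (1 of 212, 0.0119 to 2.60) in the repeat-bearing peaks beyond 50 kb and 11.3% (9.16 to 13.8) in the repeat-free peaks within 50 kb. The rule keeps distal peaks away from annotated promoters, and only 1 of the 12 was near a candidate listed as promoter-associated, so this difference is not free of the rule. Counting only candidates not listed so, the shares were 3.15% (1.58 to 5.57) in distal peaks and 6.06% (4.47 to 8.0) in the repeat-free peaks within 50 kb, whose intervals overlap. Direct overlap was found for 8 distal peaks, 2.29% (0.995 to 4.47), against a background of 3.43% over all peaks. It was 0.472% in the repeat-bearing peaks beyond 50 kb, 1.84% (1.01 to 3.08) in the repeat-free peaks within 50 kb and 4.59% (3.81 to 5.47) outside intergenic DNA. The median gap to a candidate was 217 kb for distal peaks and 83.4 kb for the repeat-free peaks within 50 kb.

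**Figure D5:**
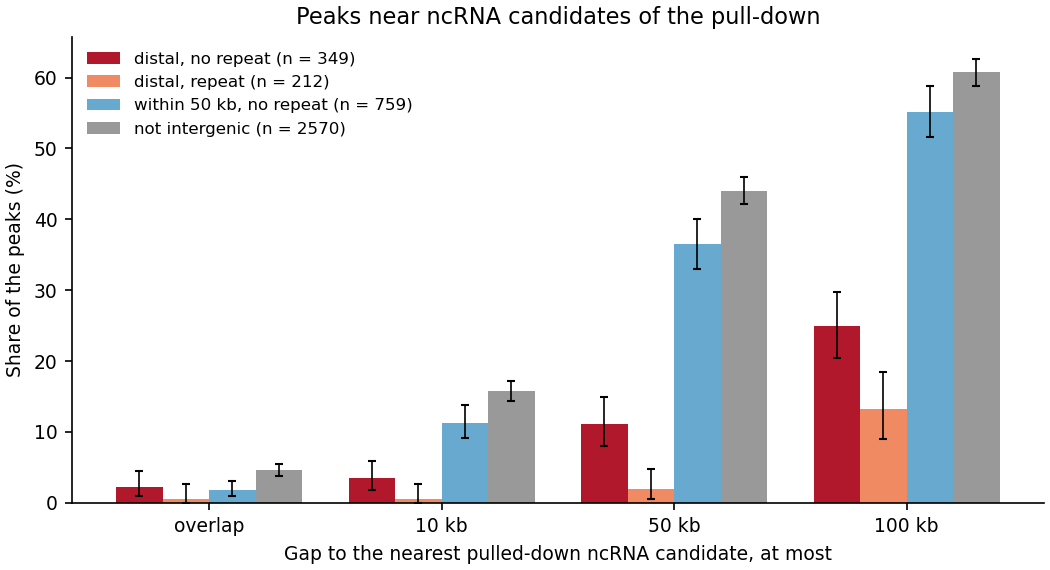
Share of peaks (%) that overlap a pulled-down ncRNA candidate or lie within 10, 50 or 100 kb of one, for the 349 distal intergenic peaks (dark red), 212 distal peaks with a repeat name, 759 repeat-free intergenic peaks within 50 kb of a TSS and 2570 peaks outside intergenic DNA. Error bars are 95% exact binomial intervals, and the distal peaks lie between the distal repeat peaks and the other classes at 10, 50 and 100 kb.

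Of the 12 peaks near an ncRNA candidate 6 lay on chromosome 6, which held 59 of the 349 distal peaks (16.9%). That chromosome's share of the ncRNA candidates is not given here, so no excess is read from this count. The candidates are given by their RPKM, a read density per kilobase scaled to library size, as the authors deposited it. Of these candidates the one with the highest RPKM, NONMMUT056416, spans 464 bases within a peak of score 38.17 at -64535 bases from Trim24, a bromodomain transcriptional cofactor. It had 94.7 RPKM in the pull-down and 13.6 RPKM in the input, a ratio of 6.96 (4.73 to 10.2). Near Tmem209, NONMMUT056105 lay 2081 bases from a peak of score 43.93, with 48.6 RPKM in the pull-down and 17.8 RPKM in the input (ratio 2.73, 2.28 to 3.29). The candidates near Fmod, which codes for the collagen-binding proteoglycan fibromodulin, and near Foxp1 had ratios of 3.32 (2.25 to 4.87) and 3.62 (2.44 to 5.52).

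Intervals came from read numbers recovered from the RPKM values and could be set for 6 of the 12. They cover counting error only, take read pairs as independent molecules, and belong to candidates listed for a high ratio, so they give the precision of each ratio and are no test of it. The widest, near Prickle1, a planar cell polarity gene, rested on 8 pull-down reads and 1 input read (ratio 5.14, 0.256 to 127). An input of exactly 1 RPKM was listed for the 2 candidates near Tas2r134 and Maml3, as for 1563 candidates in all, so their ratios of 3.91 and 2.68 equal the pull-down values. The other 4, near Ppp4r2, Hspa9, Podxl and Gm3264, span over 100000 bases each, and 3 of them had input values of 0.018 RPKM or less. The median ratio of the 12 was 3.65, against 5.06 over all ncRNA candidates.

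Of the 289 nearest genes 18 (6.23%) were also among the 1509 genes of the messenger RNA candidates, 1.19% of these, against a background of 6.61% over the 3192 genes nearest to any peak. Best measured among them was Gadd45g, a stress-induced growth arrest gene, with 14.8 RPKM in the pull-down and 4.08 RPKM in the input (ratio 3.62). Nr2f1, an orphan nuclear receptor, had 1.94 RPKM in the pull-down and 0.634 RPKM in the input. Bbs10, a chaperonin-like gene of the Bardet-Biedl group, had 1.22 RPKM in the pull-down and 0.466 RPKM in the input. Inputs were only 0.001 to 0.003 RPKM for Hrh2, Tnfrsf19, Tfec, Tmprss2, Cr2, Bcl2l14, Rbfox1, Haao, Nxph1 and Pgbd5. Ratios of those genes thus rest on the last printed decimal. Within 10 kb of a candidate transcript lay 1 distal peak (0.287%), against 5.01% of the repeat-free peaks within 50 kb and a background of 6.77% over all peaks. It was near Tnfrsf19, where the pull-down had 0.014 RPKM and the input 0.001 RPKM, so that its ratio of 14 rests on the last printed decimal. The rule keeps distal peaks between genes and over 50 kb from a TSS, so their low share near candidate transcripts is not free of the rule. A further 19 of the 289 nearest genes (6.57%) were among the 1624 genes with a promoter-associated ncRNA candidate, 1.17% of these, against a background of 8.80%. No gene was in both sets. Maml3, a Notch coactivator, had the highest ratio, 40.9, from 34.1 RPKM in the pull-down and 0.834 RPKM in the input. This promoter-associated candidate, NONMMUT043025, is not the one near the Maml3 distal peak, NONMMUT043029, whose ratio was 2.68. Hes1, a Notch target repressor, had 18.0 RPKM in the pull-down and 2.80 RPKM in the input, a ratio of 6.46. Setd4 had 4.05 RPKM in the pull-down and 1.05 RPKM in the input (ratio 3.87) and was the only 1 of the 19 with 3 distal peaks. Both shares were at or under the background, and gene assignment by distance alone does not link these RNAs to the distal peaks.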

How the data were processed

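ChIRP-seq DNA and pull-down RNA of MLE-12 cells were analysed from the authors' processed tables. The submitters' processing notes name MACS, HOMER, Bowtie2, bedtools, FastQC and SAMtools for ChIRP-seq, Trimmomatic 0.32, Picard 1.119 and bedtools 2.15 among others for the pull-down, and genome mm9. The peak list carries a MACS score that the authors deposited without a unit. Distances to the TSS and nearest genes are from the deposited annotation, which was joined to the peak list by peak name. The RPKM values of pull-down and input were deposited by the authors, rounded to 3 decimals, and the deposited ratio is their quotient. Ratios printed here were recomputed from these RPKM values. Read numbers were recovered where 1 read exceeds the rounding (14.965 M pull-down reads and 9.66 M input reads as denominators), 100% of these values lying within 0.15 reads of a whole number, and reads were counted as pairs for intervals. Library depth of the ChIRP samples is not given in the sources used here.

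Each group is 1 library, so no p-value is given. Shares have exact Clopper-Pearson 95% intervals over peaks, which are not replicates of a condition. Gaps between features were measured between nearest edges, and between neighbouring peaks from centre to centre. The named peaks were the 10 highest scores, the 5 farthest, the 3 widest, those of the 5 genes with most distal peaks, those near ncRNA candidates, 3 on each side of the distance limit and those on gene lists, of which a few are not reported here; other genes were named after their values were seen. The members and the 12 lists were chosen with earlier results of these data known. Sequence of the peaks was not used here. Python 3.11.15, pandas 2.3.3 and SciPy 1.17.1 were used, and the peak functions were tested on simulated data.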

Additional observations from a re-analysis of the deposited data

How the results depend on the processing

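Across 8 results and 29 alternatives, 15 stayed within the main interval (within 1.5 times for counts) and 14 moved. The number of distal peaks was 563 beyond 25 kb, 178 beyond 100 kb, 561 with repeat-bearing peaks kept, 85 at a score of at least 40 and 31 at a score of at least 50. At a score of at least 40 the median width was 814 bases, the upstream share 43.5% and the share on chromosomes 6, 8, 11, 16 and 19 71.8%. Of these 85 peaks, 21.2% had another distal peak of such a score within 100 kb. Distal peaks of lower score did not count as neighbours there, so this share is not comparable with the main one. Beyond 100 kb the upstream share was 41.0% and the nearest genes among messenger RNA candidates numbered 6, from fewer peaks. The share with another distal peak was 20.9% within 50 kb and 47.6% within 500 kb, and that near an ncRNA candidate 11.2% within 50 kb. The cause of the shifts with score was not tested. The median score stayed between 34.08 and 34.35. A search of the peaks for let-7 seed sites was planned and not run, since it needs the mm9 genome. No paired analysis was possible because each group is 1 library. The single ChIRP library limits every share, and most of the peaks have a score under 40, near the lowest of the list.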
